A study of Mus musculus with 6 samples.

Results

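Retinoic acid, the active form of vitamin A, is made in cells in a pair of oxidation steps. Retinol is first oxidised to retinaldehyde, mainly by the retinol dehydrogenase RDH10, and DHRS3 drives that step backwards. The retinaldehyde dehydrogenases of the ALDH1A family then make retinoic acid irreversibly. Retinoic acid binds the nuclear receptors RAR, which sit on DNA as heterodimers with RXR, and RXR also pairs with other nuclear receptors such as those of vitamin D and of fatty acids. In the immune system ALDH1A2 is best known from gut dendritic cells, where retinoic acid favours regulatory T cells and gut homing.

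The genes described are 9 of this pathway, picked by symbol from 55487 genes with a row in the count tables. They are the retinaldehyde dehydrogenases Aldh1a1, Aldh1a2 and Aldh1a3, the enzymes Rdh10 and Dhrs3, and the receptors Rara, Rarg, Rxra and Rxrb. All 9 symbols matched 1 Ensembl gene each. The choice was made with earlier results of these counts known, so the contrasts below describe the genes, and an adjusted p only places a gene in a test over the whole table.

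The cells were macrophages from Lewis lung carcinoma, a transplantable mouse lung tumour grown subcutaneously in C57BL/6 mice and taken 15 to 17 days after injection. All cells passed the same sort for CD11b and F4/80 without Ly6C and Ly-6G, and were divided by surface MHC class II. The labels name no drug, genetic change or other treatment. There were 3 libraries of rRNA-depleted total RNA with the label MHC-IIhigh and 3 with the label MHC-IIlow, 1 of each label in batches 1, 2 and 3. No label states that libraries are from different mice, and the p-values rest on a spread between libraries that could be technical only.

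Reads in genes numbered 10202879 to 25473051 per library. MHC class II transcripts ran against the labels: H2-Aa, an MHC class II chain, ran from 1166 to 1506 CPM (reads in a gene per unit of library size, scaled by TMM) where the label says low and from 4.4 to 6.69 CPM where it says high. Every direction below is therefore that of the libraries as labelled. All 12 listed macrophage markers had reads in these libraries, with summed CPM of 4832 to 6259 (high label) and 4361 to 10050 (low label). Labelled low replicate 3 stood apart, with 47.3% of its reads in genes on 1 annotated rRNA copy against 3.85% to 13.5% elsewhere. Relative to each gene's mean, log2 CPM in that library also climbed with GC content, by 0.83 per 10 percentage points, against -0.47 to 0.22 in the other 5.

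The promoter of Aldh1a2, the member with the largest difference between labels, and that of Rarb, a receptor gene that retinoic acid induces, are shown as the 250 bases before the annotated start. Both come from RefSeq on GRCm38.p6, which held a start for 7 of the 9 members. Aldh1a2 is at chr9:71215539-71215788 on the plus strand, and Rarb at chr14:16575477-16575726 on the minus strand. Capitals mark an octamer (ATGCAAAT) and a CCAAT box in Aldh1a2, and in Rarb a retinoic acid response element, the direct repeat GGTTCA and AGTTCA with 5 bases between them (the capitals run over the spacer).
Aldh1a2: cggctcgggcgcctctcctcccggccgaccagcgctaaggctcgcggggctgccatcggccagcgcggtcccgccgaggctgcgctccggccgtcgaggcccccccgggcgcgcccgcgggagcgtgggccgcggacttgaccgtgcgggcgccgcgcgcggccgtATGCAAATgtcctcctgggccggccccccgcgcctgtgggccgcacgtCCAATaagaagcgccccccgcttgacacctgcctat
Rarb: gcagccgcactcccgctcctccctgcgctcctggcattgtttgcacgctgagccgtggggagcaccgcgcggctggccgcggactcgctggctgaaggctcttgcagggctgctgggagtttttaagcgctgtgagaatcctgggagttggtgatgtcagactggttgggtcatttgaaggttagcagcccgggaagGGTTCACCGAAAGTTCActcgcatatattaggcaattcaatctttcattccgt

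The Rarb element matched in 2 of 32851 such windows (0.00609%), on either strand, and Aldh1a2 held no match. The consensus form, AGGTCA repeated after a spacer of 5 bases, matched in 3 windows, and neither window shown is among them. AGGTCA alone, which overlaps that repeat, was in 14% of windows and in neither of the ones shown. CCAAT was in 33.8% of windows and the octamer in 1.6%. The Aldh1a2 window was 77.6% G and C with 40 CpG sites, against medians of 52.4% and 6 over all windows. A match is a description of letters, not of a bound site.

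Of the retinaldehyde dehydrogenases, Aldh1a2 was nearly the only one detected. Aldh1a2 (ENSMUSG00000013584) lies on chromosome 9 from 71215789 to 71296243 (GRCm38). It had 4, 2 and 7 reads in replicates 1, 2 and 3 labelled high, and 124, 47 and 15 reads in those labelled low. This was 0.223, 0.0891 and 0.25 CPM against 6.61, 1.92 and 2.68 CPM. Values joined by "against" are those of replicates 1, 2 and 3 labelled high, then of replicates 1, 2 and 3 labelled low. All 3 libraries labelled low lay above all 3 labelled high, and labelled low replicate 1 was well above its 2 fellows.

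Counting error did not bridge the labels. The exact Poisson 95% intervals, which cover counting error only, reached no higher than 0.57 CPM in any library labelled high and no lower than 1.41 CPM in any labelled low. The interval of labelled low replicate 1, 5.5 to 7.88 CPM, lay above those of the other 2 libraries of that label, so the spread within the label was more than counting noise.

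Mean Aldh1a2 was 3.74 ± 2.52 CPM for the low label and 0.187 ± 0.0862 CPM for the high (SD, n = 3 each), a 19.9-fold difference in CPM. Scaled by exon length, with another library scale than TMM, the values were 0.49, 0.212 and 0.603 against 13.7, 4.75 and 2.63. These did not overlap either. The log2 fold change of high over low was -4.28 with a standard error of 0.64, and the adjusted p by edgeR was 0.0396. The log2 ratios within batches 1, 2 and 3 were -4.38, -3.42 and -2.99. Aldh1a2 was the only 1 of the 7 tested members past an adjusted p of 0.05, where 0.446% of all 14140 tested genes were, 0.354% with a lower and 0.0919% with a higher level under the high label. By DESeq2 it was again the only member past that threshold (adjusted p 1.274e-07), with 2.81% of all genes. With the GC trend of each library taken out and the batch as a block (adjusted p 0.00417 by edgeR) 3.77% of all genes passed. Aldh1a2 entered the test only through its reads in the libraries labelled low. In bulk RNA, fewer cells of a type and less RNA per cell cannot be told apart.

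The call was near the threshold. Without any single library labelled high, or without labelled low replicate 1, the adjusted p by edgeR lay between 0.144 and 0.21 while the log2 fold change stayed between -4.59 and -3.51. The adjusted p was 0.0413 without labelled low replicate 3, and 0.0228 with the batch as a block.

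Aldh1a1 and Aldh1a3, the other enzymes of this step, were too low to test. Aldh1a1 (chromosome 19, 20492715 to 20643465) had 1 read, in labelled high replicate 1, and 0 in the other 5 libraries. A count of 0 allows up to 3 reads, which is 0.107 to 0.535 CPM in those libraries. Aldh1a3 (chromosome 7, 66390890 to 66427517) had 2, 0 and 0 reads against 3, 3 and 0. The ratio of low over high for Aldh1a3, from pooled reads, was 4.2 with an exact 95% interval of 0.751 to 42.6, so no difference was detectable at this depth.

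Scaled by exon length, Aldh1a2 made up 97% to 100% of the summed level of the 3 dehydrogenases in the libraries labelled low. In the libraries labelled high it was 73.5% in replicate 1 and 100% in replicates 2 and 3, from few reads.

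**Figure D1:**
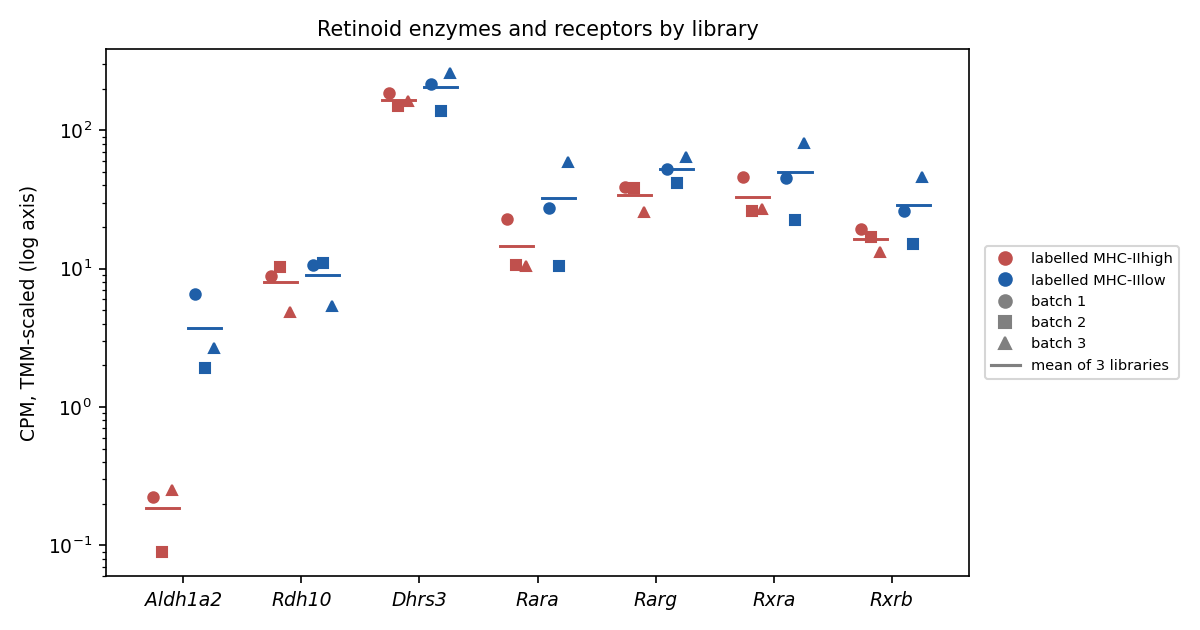
CPM (log axis, TMM-scaled) of the 7 tested members in each of the 6 libraries, coloured by label, with marker shape for the batch and a line at the mean of 3 libraries. Aldh1a2 separates the labels (0.0891 to 0.25 CPM against 1.92 to 6.61 CPM), and Rdh10 is lowest in both batch 3 libraries. In CPM labelled low replicate 3 is the highest point of Dhrs3 and of the 4 receptors. On the length-scaled level, which scales libraries otherwise than TMM, it is the highest for Rara alone.

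Several listed genes of dendritic cells moved with the label in the same direction as Aldh1a2. All 17 listed dendritic cell markers had reads. Their summed CPM, most of it Itgax under either label, ran from 306 to 457 where the label is low and from 60.5 to 101 where it is high. Of the 11 tested, 4 passed the test by edgeR and 7 by DESeq2, where 0.446% and 2.81% of all tested genes did. The 4 were lower under the high label (Flt3, Ccr7, Itgax and Ccl22). Of the 11, 5 (Flt3, Ccr7, Cd209a, Kit and Batf3) entered the test only through their reads in the libraries labelled low, so the count of calls in this direction is no support. The part of dendritic cells in the difference of Aldh1a2 was not tested.

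Itgax, an integrin that macrophages also carry, had the highest level of that list, with 50.5, 45.2 and 88.1 CPM against 287, 241 and 385 CPM. Clec10a, a lectin found on either cell type, was at 10.6, 8.73 and 8.97 CPM and at 32.8, 14.6 and 27.5 CPM, and did not pass the test (edgeR, adjusted p 0.14). Ccl22, a chemokine of mature dendritic cells, measured 0.501, 0.579 and 0.679 CPM against 10.6, 13.5 and 12.8 CPM. Among the libraries labelled low, 5 of the 17 markers (Clec10a among them) were highest in replicate 1, where Aldh1a2 was highest, 6 (Ccl22 among them) in replicate 2 and 6 (Itgax among them) in replicate 3.

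Markers of other cell types were also listed, although the gate on CD11b and F4/80 without Ly6C and Ly-6G should remove most of those cells. The B cell list summed to 2.23 to 2.9 CPM (high label) and 6.54 to 13 CPM (low label). The T and NK cell list summed to 0.536 to 1.11 and 1.78 to 4 CPM, with Cd3e, Cd3d and Cd8a at 0 reads. Under the low label most of each sum came from a single gene, Ighm (3.76 to 10.4 CPM) and Cd2 (1.78 to 3.3 CPM). The list of mast cells, basophils and eosinophils summed to 0.39 to 0.802 and 3.21 to 11.6 CPM, with Epx at 0 reads. Under the low label most of this was Ear2, an eosinophil ribonuclease (2.86 to 11 CPM). Ear2 was the 1 tested gene and lower under the high label (adjusted p 0.0224 by edgeR). It entered the test only through the libraries labelled low. Siglecf, Prg2, Cpa3, Mcpt4 and Fcer1a overlapped between the labels. Monocyte markers summed to 266 to 377 and 344 to 941 CPM. All 5 tested monocyte markers had a negative log2 fold change, with 0 called by edgeR. DESeq2 called 1 of them, which was lower, and 2.81% of all tested genes in either direction. Endothelial markers summed to 18.1 to 24.8 and 15.8 to 31.2 CPM. Epithelial markers summed to 14.8 to 21.7 and 41 to 42.6 CPM, with Cldn4 and Cldn7 at 0. Under the low label most of the epithelial sum was the cadherin Cdh1 (30.1 to 37.5 CPM), lower under the high label (adjusted p 0.018 by edgeR). Epcam, Krt8, Krt18 and Krt19 overlapped between the labels. Neutrophil markers summed to 14 to 16.6 and 12.4 to 28.6 CPM, with Ly6g at 0 reads. The part of these cells in the level of Aldh1a2 was not tested.

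The 5 genes whose log2 CPM followed that of Aldh1a2 most closely over the 6 libraries, among protein-coding genes of at least 1 CPM, were Slc38a1, Sort1, Tmem50b, Cd226 and Txndc11, with Pearson r from 0.987 to 0.997. The points are the same 6 libraries, which share the labels and batches. The 5 genes were picked by this likeness, so their differences between the labels are no separate support. Cd226, an adhesion receptor best known from T and NK cells, was the one of similar size, with 5, 3 and 5 reads against 101, 50 and 19 (log2 fold change -4.18, standard error 0.53, adjusted p 0.0217 by edgeR). Like Aldh1a2, Cd226 entered the test only through its reads in the libraries labelled low. Sort1, the sorting receptor sortilin, had a log2 fold change of -1.48 (adjusted p 0.0864). Those of Slc38a1, an amino acid transporter, Tmem50b and Txndc11 lay between -0.44 and -0.36.

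Rdh10, the enzyme that starts the pathway, was lowest in batch 3 under both labels and did not pass the test of label. Rdh10 (chromosome 1, 16105774 to 16133734) measured 8.79, 10.3 and 4.86 CPM against 10.7, 10.9 and 5.35 CPM. The 2 libraries of batch 3 were the lowest of the 6, and the labels overlapped. The log2 fold change was -0.20 with a standard error of 0.37 (adjusted p 0.788 by edgeR), and it was 0.07 without labelled high replicate 3. Of all tested genes, 5.15% had both batch 3 libraries below the other 4.

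Several fibroblast markers were also lowest in batch 3. Of the 10 listed, 6 (Col3a1, Dcn, Lum, Pdgfra, Postn and Fap) had both batch 3 libraries below the other 4, while Col1a1, Col1a2 and Thy1 were highest in labelled low replicate 3. The summed CPM of the list, most of it Col3a1, was 413, 411 and 74.1 in labelled high replicates 1, 2 and 3 and 513, 604 and 131 in labelled low replicates 1, 2 and 3. Of 9 tested genes 0 were called by edgeR or DESeq2. At an unadjusted p under 0.05 by edgeR, 1 was lower under the high label, as were 7.99% of all tested genes. All 10 listed fibroblast markers had reads. Col3a1, a fibrillar collagen gene, measured 307, 293 and 52.5 CPM against 398, 457 and 108 CPM. Dcn, the matrix proteoglycan decorin, measured 57.5, 63.7 and 10.3 CPM against 60.3, 75.3 and 7.14 CPM, and the proteoglycan Lum, lumican, 27.2, 25.3 and 5.26 CPM against 32.7, 40.2 and 1.96 CPM. The part of fibroblast RNA in the level of Rdh10 was not tested.

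**Figure D2:**
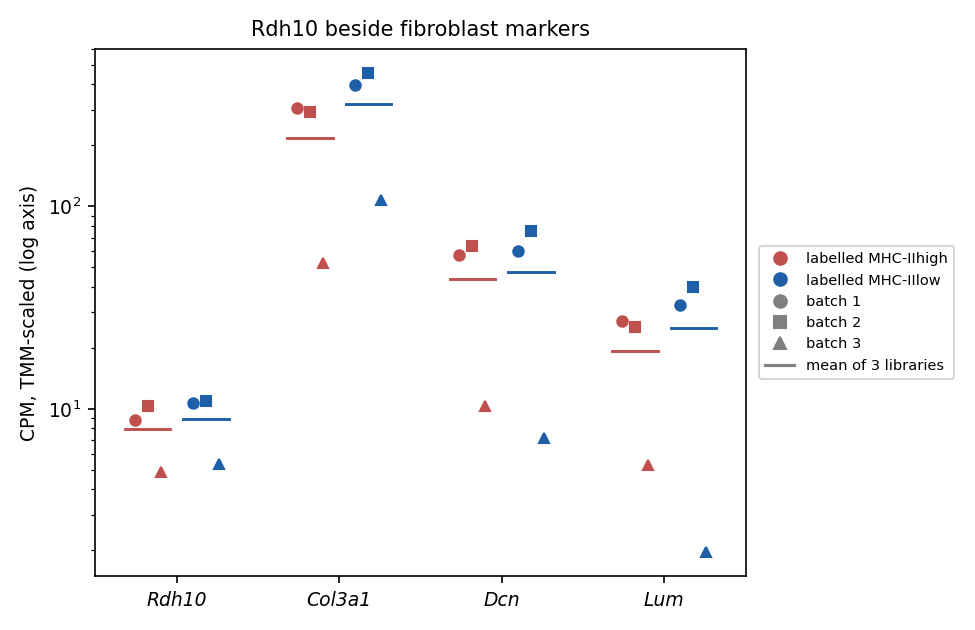
CPM (log axis, TMM-scaled) of Rdh10 and of the 3 most abundant fibroblast markers in each library, with colour for the label, marker shape for the batch and a line at the mean of 3 libraries. In all 4 genes the batch 3 triangles lie lowest under both labels, with Rdh10 at 4.86 and 5.35 CPM.

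Dhrs3, which turns retinaldehyde back into retinol and is itself induced by retinoic acid, was by far the most abundant member. Dhrs3 (chromosome 4, 144892827 to 144928209) had 3318, 3400 and 4540 reads against 4070, 3390 and 1465. This was 185, 151 and 162 CPM against 217, 139 and 261 CPM, so that the labels overlapped and labelled low replicate 2 was the lowest library. The log2 fold change was -0.31 with a standard error of 0.25 (adjusted p 0.554 by edgeR) and -0.10 with a standard error of 0.15 when the GC trend of each library was taken out. Its length-scaled level was 198 to 348 over the 6 libraries, with a mean above those of 97.1% of tested genes. On that level labelled low replicate 3 was the lowest library, not the highest. The level uses another library scale than TMM, and within a gene only the library scale can change the order of libraries.

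Rarg was the most abundant RAR. Rarg (chromosome 15, 102234938 to 102257517) measured 38.7, 38.2 and 25.7 CPM against 52.3, 41.7 and 64.6 CPM. All 3 libraries labelled low lay above all 3 labelled high, with 41.7 against 38.7 CPM at the nearest. Aldh1a2 and Rarg were the 2 of 7 tested members whose labels did not overlap in this direction, where 9.48% of all tested genes did so. The log2 fold change of Rarg was -0.62 with a standard error of 0.24 (adjusted p 0.388 by edgeR), and -0.16 with a standard error of 0.18 with the GC offset. On the length-scaled level, with its other library scale, the labels overlapped. Labelled low replicate 3 was at 33.7 among values of 32.9 to 57.7.

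Rara, the receptor expressed in most tissues, varied most in CPM relative to its mean among the member receptors. Rara (chromosome 11, 98927818 to 98974942) measured 22.8, 10.6 and 10.4 CPM against 27.5, 10.5 and 59.4 CPM. Labelled low replicate 3 was the highest library and both batch 1 libraries came next, while labelled low replicate 2 was level with 2 libraries labelled high. The log2 fold change was -1.13 with a standard error of 0.59 (adjusted p 0.451 by edgeR). With the GC offset it was -0.44, and -0.38 when labelled low replicate 3 was left out.

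Rxra and Rxrb, the RXR partners of those receptors, repeated that order of libraries. Rxra (chromosome 2, 27676440 to 27762957) measured 45.7, 26 and 27 CPM against 45.3, 22.4 and 81.4 CPM. Rxrb (chromosome 17, 34031812 to 34038399) measured 19.4, 16.9 and 13.2 CPM against 26, 15.1 and 46 CPM. In both genes labelled low replicate 3 was highest, batch 1 came next under either label, and labelled low replicate 2 fell within or below the libraries labelled high. The log2 fold changes of Rxra and Rxrb were -0.58 (standard error 0.44) and -0.80 (standard error 0.38), with adjusted p values of 0.536 and 0.434 by edgeR. With the GC offset they were -0.03 and -0.10, with standard errors of 0.20 and 0.12, and without batch 3 that of Rxra was 0.09.

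In CPM, labelled low replicate 3 was the highest library for 5 of the 7 tested members (Dhrs3 and the 4 receptors) and for 36.8% of all tested genes. On the length-scaled level, which scales libraries otherwise than TMM, it was the highest for Rara alone of the 7. The longest transcripts of these 5 were 52.4% to 61.4% G and C, and those of Rdh10 and Aldh1a2 were 46.8% and 50.6%. Both batch 1 libraries lay above both batch 2 libraries and labelled high replicate 3 in 4 of the 7 members (Dhrs3, Rara, Rxra and Rxrb) and in 23.1% of all tested genes. All 7 tested members had a negative log2 fold change, as had 7285 of all 14140 tested genes, with medians of -0.62 and -0.02. With the GC offset all 7 stayed negative. Those of Rxra, Rxrb, Dhrs3 and Rarg then lay between -0.16 and -0.03, and those of Rdh10, Rara and Aldh1a2 were -0.33, -0.44 and -4.23. Only Aldh1a2 was called with the GC offset (adjusted p 0.0121 by edgeR), where 2.54% of all genes were.

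**Figure D3:**
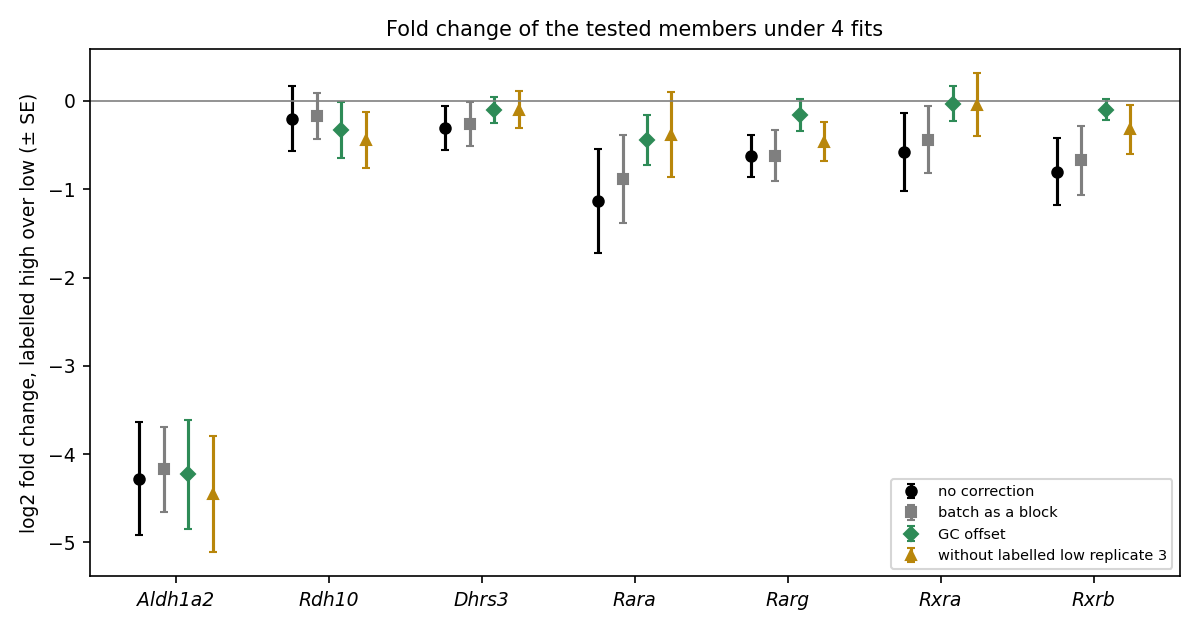
Log2 fold change of labelled high over labelled low (± standard error) of the 7 tested members by edgeR, with no correction, with the batch as a block, with the GC trend of each library taken out, and without labelled low replicate 3. Aldh1a2 stays between -4.45 and -4.17 in all 4, and Rxra moves from -0.58 to -0.03 with the GC offset.

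Levels of different members were compared per length only. By mean length-scaled level over the 6 libraries, the order was Dhrs3 (285 ± 51.2), Rarg (45.4 ± 10.4), Rxra (31.6 ± 7.64), Rxrb (23.9 ± 4.28), Rara (20.9 ± 8.57), Rdh10 (9.96 ± 4.5), Aldh1a2 (3.73 ± 5.19), Aldh1a3 (0.0719 ± 0.08) and Aldh1a1 (0.00936 ± 0.0229; SD, n = 6 throughout). The range of Dhrs3 lay apart from all others. The ranges of neighbours from Rarg to Aldh1a2 overlapped, and Rxra and Rxrb changed places when the longest transcript stood for the length.

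Within the receptor families, the labels differed little in shares beside the spread of the libraries. Rarg made up 69.1 ± 8.12% (high label) and 65 ± 12.9% (low label) of the summed length-scaled RAR level, and Rara 27.8 ± 7.05% and 33.1 ± 13.9% (SD, n = 3 each). Rarb, added here to complete the family after its values were seen, made up 3.03 ± 1.24% and 1.87 ± 1.05%. Rxra made up 58.4 ± 5.18% and 54.6 ± 2.4% of the RXR level and Rxrb 41.4 ± 5.38% and 45.3 ± 2.44%, and Rxrg had 5 reads in all. For each of the 4 members the labels differed by less than the larger of the SDs within a label.

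Among other retinoid receptors and partners of RXR, 9 of 12 listed genes were tested, with a median log2 fold change of -0.90. By edgeR 1 was lower under the high label and 0 were higher, beside 0.354% and 0.0919% of all tested genes. DESeq2 called 2, both lower, and 2.81% of all tested genes in either direction. For Ppard, Nr1h2 and Nr4a1 the log2 ratio within batch 3, which holds labelled low replicate 3, was -2.32, -1.65 and -2.22. Within batches 1 and 2 their ratios lay between -0.33 and 0.32. Those of Pparg were -1.08, -0.97 and -1.14 in batches 1, 2 and 3. The gene called by edgeR was Vdr, the vitamin D receptor, which binds DNA with RXR. Vdr measured 3.01, 2.67 and 2.43 CPM against 17.3, 8.63 and 20.2 CPM, without overlap. Its log2 fold change was -2.49 with a standard error of 0.35 (adjusted p 0.0311 by edgeR). The adjusted p was 0.0522 with the batch as a block, and 0.128 to 0.188 without any single library labelled high or without labelled low replicate 1.

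Pparg, a fatty acid receptor that also pairs with RXR, measured 2.39, 2.76 and 2.93 CPM against 5.17, 5.52 and 6.6 CPM. In CPM the labels did not overlap. The mean length-scaled level of Pparg was 4.83 ± 0.713 for the high label and 7.89 ± 2.76 for the low (SD, n = 3 each). The gene did not pass over all genes (log2 fold change -1.08, standard error 0.25, adjusted p 0.156 by edgeR) and did with the GC offset (adjusted p 0.0395). Rarb, whose promoter element is shown above, measured 2.95, 0.98 and 1.72 CPM against 1.86, 1.92 and 1.25 CPM, with overlap. Its log2 fold change was 0.11 ± 0.45 (standard error, edgeR's adjusted p 0.912).

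**Figure D4:**
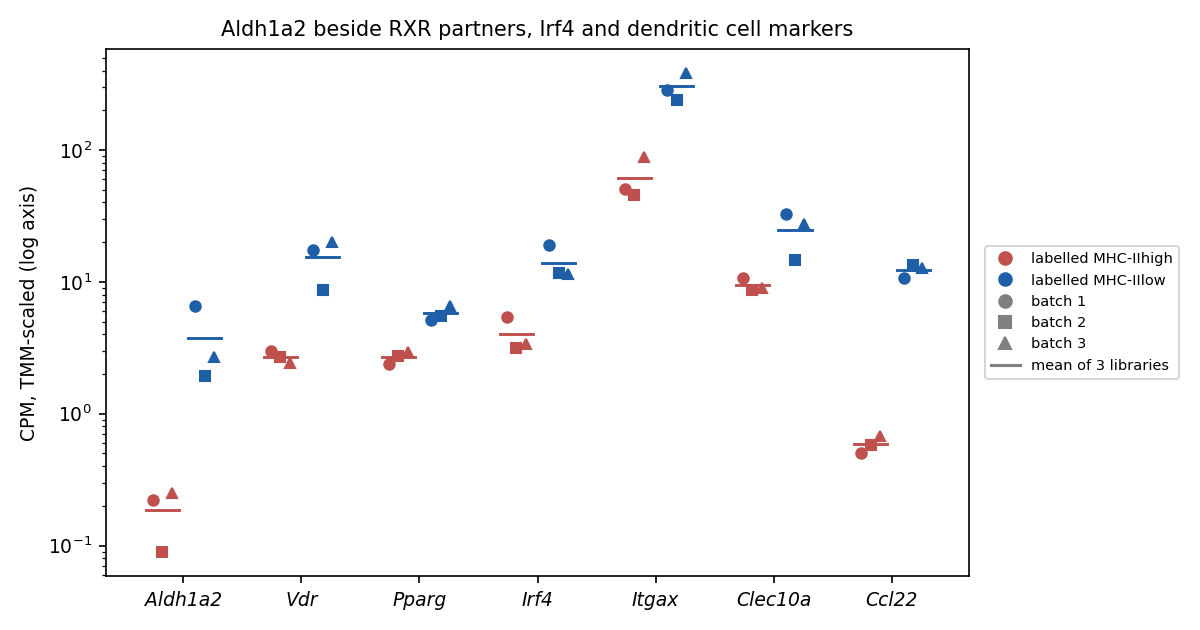
CPM (log axis, TMM-scaled) of Aldh1a2, of the nuclear receptors Vdr and Pparg, of Irf4 and of the 3 most abundant dendritic cell markers in each library, with colour for the label, marker shape for the batch and a line at the mean of 3 libraries. In CPM each of the 7 genes is higher in all 3 libraries labelled low, and the gap is wide for Aldh1a2 and Ccl22 and narrow for Clec10a and Pparg.

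Genes described as regulators of ALDH1A2 in dendritic cells were mostly on the same side, with 7 of 8 tested genes negative, a median of -0.96 and 0 called by edgeR. At an unadjusted p under 0.05, 6 were lower under the high label, as were 7.99% of all tested genes. DESeq2 called 3, all lower, and 2.81% of all tested genes in either direction. For Csf2ra, Il4ra and Tgfb1 the log2 ratio within batch 3, which holds labelled low replicate 3, was -1.58, -1.57 and -2.66. Within batches 1 and 2 their ratios lay between -0.60 and 0.15. Those of Irf4 were -1.78, -1.84 and -1.72 in batches 1, 2 and 3. Irf4, a transcription factor of several myeloid and lymphoid cells, measured 5.45, 3.16 and 3.4 CPM against 18.9, 11.6 and 11.4 CPM. Its mean length-scaled level was 4.27 ± 1.12 for the high label and 12.2 ± 6.54 for the low (SD, n = 3 each). Its log2 fold change was -1.81 ± 0.32 (standard error), with adjusted p values by edgeR of 0.0784 and, after the GC offset, 0.0168. Mean Csf2rb, the shared beta chain of the GM-CSF receptor, was 120 ± 3.33 CPM for the high label and 322 ± 129 CPM for the low (SD, n = 3 each). Its log2 fold change was -1.43, with adjusted p values by edgeR of 0.0987 and, after the GC offset, 0.00854.

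Genes for breakdown of retinoids had few reads, and levels of the carrier and storage genes ranged widely. The retinoic acid hydroxylases Cyp26a1, Cyp26b1 and Cyp26c1 had 10, 18 and 6 reads over the 6 libraries and were not tested. Of 14 carriers and storage genes 10 had a read and 5 were tested. The summed CPM of the list ran from 462 to 884 (high label) and from 332 to 2190 (low label). By edgeR 0 were called, and 1 was lower at an unadjusted p under 0.05, as were 7.99% of all tested genes. DESeq2 called 1, which was lower, and 2.81% of all tested genes in either direction. Lrat, which esterifies retinol for storage, had 0 reads. Mean Stra6, the membrane transporter of retinol, was 0.947 ± 0.304 CPM for the high label and 1.7 ± 0.566 CPM for the low (SD, n = 3 each, edgeR's adjusted p 0.42). Lpl, a lipase that frees fatty acids and retinyl esters from lipoproteins, measured 18.4, 31.5 and 39.4 CPM against 72.9, 73.3 and 54.3 CPM. In CPM its labels did not overlap. Its mean length-scaled level was 15.2 ± 5.95 for the high label and 27.8 ± 14.5 for the low (SD, n = 3 each). The log2 fold change of Lpl was -1.17 ± 0.29 (standard error), with adjusted p values by edgeR of 0.192 and, after the GC offset, 0.00908.

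Of 17 other retinol and retinal enzymes 7 were tested, with 0 called by edgeR (2 higher under the high label at an unadjusted p under 0.05, as were 4.06% of all tested genes) and 0 by DESeq2, 6 positive fold changes and a median of 0.37. Mean Dhrs7, a short-chain reductase, was 14.8 ± 1.64 CPM for the high label and 9.9 ± 1.22 CPM for the low (SD, n = 3 each, edgeR's adjusted p 0.378). Mean Adh5, a widely expressed alcohol dehydrogenase, was 46 ± 0.952 CPM and 34.6 ± 4.5 CPM (adjusted p 0.408). Of 11 receptor cofactors, all tested, 0 were called by edgeR or DESeq2, 0 had an unadjusted p under 0.05 and the median was -0.06.

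Of 21 genes described as targets of retinoic acid, 12 were tested, 0 were called by edgeR and the median was -0.27. At an unadjusted p under 0.05, 1 was higher and 1 lower under the high label, near the shares of all tested genes (4.06% and 7.99%). DESeq2 called 1, which was higher, and 2.81% of all tested genes in either direction. Tgm2, a transglutaminase that retinoic acid induces in myeloid cells, measured 521, 274 and 323 CPM against 667, 268 and 994 CPM, with overlap (edgeR's adjusted p 0.472). Mean Cd38, an ectoenzyme also induced by it, was 15.6 ± 1.04 CPM for the high label and 23.6 ± 5.79 CPM for the low (SD, n = 3 each), with adjusted p values by edgeR of 0.386 and, after the GC offset, 0.0311. Arg1, arginase, was on the other side, with 1755, 1614 and 1748 CPM against 969, 945 and 810 CPM. Its log2 fold change was 0.91 ± 0.18 (standard error), with adjusted p values by edgeR of 0.0966 and, after the GC offset, 0.0111. Some listed targets respond to other signals as well.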

How the data were processed

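Per the labels' protocols, rRNA was removed from total RNA before stranded library preparation. Each deposited table holds unnormalised counts of reads by Ensembl gene for 1 library. GRCm38 and the tools STAR, HTSeq, Trimmomatic, FastQC and DESeq2 stand in the submitters' processing notes without versions. Which annotation release and which strand setting HTSeq used is not given in the sources used here. No member shares exon bases with another annotated gene. Reads in no feature (35.2% to 49.4% of listed reads), ambiguous reads (0.324% to 0.864%) and reads at several places (7.6% to 17.4%) stayed out of library sizes and tests. Symbols, lengths and GC content came from GENCODE M21, which matched 55227 of 55487 genes.

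The quasi-likelihood test of edgeR 4.0.16 (R 4.3.3) compared the labels over the 14140 genes that its default filter kept, with TMM factors, Benjamini-Hochberg adjustment and calls under 0.05. CPM are counts over TMM-scaled library sizes. The level per length divides counts by the union of exons and scales each library to the same sum outside rRNA and mitochondrial genes. That sum takes the place of the TMM-scaled library size. The TMM factor was 0.550 in labelled low replicate 3 and 1.087 to 1.187 elsewhere. Standard errors are the fold change over the square root of F. Ratios within a batch add 0.1 CPM. The GC offset removes each library's local regression of log2 CPM on GC content (span 0.4). The test was checked on simulated counts with a common dispersion for all genes and no GC trend or batch effect. The check therefore does not cover those features of the real libraries. Labels give each batch 1 library per label, which pairs them. Deviations from the label means correlated over genes at 0.16, 0.32 and -0.10 in batches 1, 2 and 3. Between libraries of unlike label and different batches the correlations ran from -0.46 to 0.33. The main test left the batch out.

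The members and lists were chosen with earlier results of these data known. Named beside the members are called genes of the wider lists and up to 4 others by smallest p, up to 3 of a marker list by highest CPM, and the 5 genes most correlated with the tested member of largest fold change. The alternatives were RLE size factors, DESeq2 1.42.0, other filters, the batch block, removal of rRNA and mitochondrial genes, GC offsets and leaving out libraries. Leaving out batch 3 was chosen after seeing the data. 1 listed gene is not reported here.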

Additional observations from a re-analysis of the deposited data

How the results depend on the processing

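Aldh1a2 kept its direction in all 15 alternatives and passed in 10, with an adjusted p from 2.279e-12 (no filter on low counts) to 0.21 (without labelled high replicate 2). Its log2 fold change was -4.60 to -3.51 when a library was left out, and -4.76 without batch 3 (adjusted p 0.166), where fewer libraries were fitted. It was -4.17 with the replicate block. Rara passed with no filter (-1.01, adjusted p 0.0198) and without labelled low replicate 2 (range over left-out libraries -1.57 to -0.38), as did Rxrb in the latter setting (-1.07 to -0.32). In that setting the remaining libraries labelled low were those with the steepest rise over GC content. Rdh10 ran from -0.44 to 0.07 and turned positive without labelled high replicate 3, and Rxra was 0.09 without batch 3. Not every other named gene was followed over the alternatives. Among those that were, the genes that changed sign were Rarb (-0.06 with the GC offset and block, -0.33 to 0.44 over left-out libraries), Dcn (0.05 with the block, -0.63 to 0.35 over left-out libraries) and Lum (-0.93 to 0.09). The cause of these changes was not tested.

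Over all genes, 13 were higher and 50 lower under the high label. The counts were 121 and 277 by DESeq2, 113 and 436 with no filter, 121 and 238 with the GC offset, 161 and 372 with the GC offset and the replicate block, and 0 and 28 without batch 3. With the replicate block 1 was higher. Leaving out a library gave 0 to 246 higher and 8 to 784 lower. The block ended the call of Vdr and of no member. Depth limits Aldh1a1, Aldh1a3 and the Cyp26 genes, which had too few reads to compare.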
